A study of Mus musculus with 8 samples.

Results

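The genes described here encode the protein subunits of the mitochondrial ribosome. They were taken as every row of the count table whose Ensembl ID belongs in GENCODE M21 to a protein-coding gene with a symbol that starts with Mrpl or Mrps and a number. This gave 78 of the 20781 genes in the table, 49 named for the large subunit and 29 for the small subunit. All 78 had counts in every library and all passed the filter on low counts. RNA was sequenced from cultured mouse fibro-adipogenic progenitors (FAPs), the stromal cells of skeletal muscle that can turn into fat cells or into matrix-producing fibroblasts. The cells came from the quadriceps, gastrocnemius and tibialis anterior, all uninjured, of wild-type male mice of the C57BL/6 strain (C57BL/6J in the series' design text), with no genetic change in either group. They were held in culture for 48 h. Treatment then lasted 24 h, and 4 libraries are of cells given vehicle and 4 of cells given melatonin. The labels give biological replicates but do not say whether each came from its own mouse or from a pool of mice. The sources used here do not give the animals' age or the melatonin dose, and the extraction text names another muscle, longissimus dorsi. Both groups consist of cells grown in a dish, so neither shows the progenitors as they are in muscle.

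Mitochondria keep a small genome whose messenger RNAs encode only subunits of the respiratory chain and the ATP synthase, and they translate these on ribosomes of their own. The RNA of this ribosome is transcribed inside the mitochondrion, whereas every one of its proteins is encoded in the nucleus, made in the cytosol and imported. Many of the proteins descend from those of the bacterial ribosome, and many others have been added in mitochondria. Tissues and cells that gain respiratory capacity, such as maturing fat cells, are known to make more of this machinery.

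Total counts ran from 45682034 to 52401153 with vehicle and from 35584931 to 49769873 with melatonin. Levels are given in CPM, that is, counts scaled to a common library depth, here with TMM factors. Melatonin replicate 4 stood apart from the other melatonin libraries on the second principal component (-37.7 against 13.8 to 15.3) and had the highest share of counts in cytosolic ribosomal protein genes, 5.85% against 4.07% to 4.67% in the other 7 libraries. The share of counts from the mitochondrial genome was 1.05% to 1.301% with vehicle and 2.09% to 2.44% with melatonin. All 6 FAP markers were detected (summed level 2392 to 2430 CPM with vehicle and 1621 to 1745 CPM with melatonin). All 5 adipocyte markers (72.9 to 78.6 and 376 to 484 CPM) and all 7 macrophage markers (464 to 708 and 312 to 585 CPM) were detected too. Of the other lists, the 6 endothelial markers summed to 31.2 to 38.3 and 46.3 to 55.3 CPM, the 5 smooth muscle and pericyte markers to 113 to 150.2 and 99.8 to 121 CPM, the 4 Schwann cell markers to 10.02 to 12.9 and 12.4 to 16.4 CPM, and 4 of the 6 satellite cell and myoblast markers to 29.8 to 36.5 and 31.1 to 58.0 CPM. Pax7 and Myf5, the remaining markers of satellite cells, had no row in the count table and were not analysed here. In these bulk libraries a change in the cells present and a change in RNA per cell cannot be told apart, and the part of the other cell types in the results below was not tested.

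With melatonin, mitochondrial ribosomal protein genes were higher as a group. Of the 78 genes, 34 (43.6%) rose and 0 fell at an edgeR adjusted p under 0.05, where 18.1% of all 16565 tested genes were higher and 18.5% lower. Neither DESeq2 nor limma-voom called a member lower, where 17.1% and 18.9% of the genes tested in them were lower. An unadjusted edgeR p under 0.05 gave 43 members higher and 0 lower. The share of all tested genes at that threshold was not counted. The median log2 fold change, melatonin over vehicle, was 0.26 over the 78 genes and 0.01 over all tested genes. The 4 melatonin libraries all lay above the 4 vehicle libraries for 32 members (background 18.5% of tested genes) and below them for 0 (background 19.2%). Of the 49 large subunit genes 18 rose (36.7%, median 0.25), and of the 29 small subunit genes 16 rose (55.2%, median 0.30). The difference between the subunits was not tested.

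**Figure D1:**
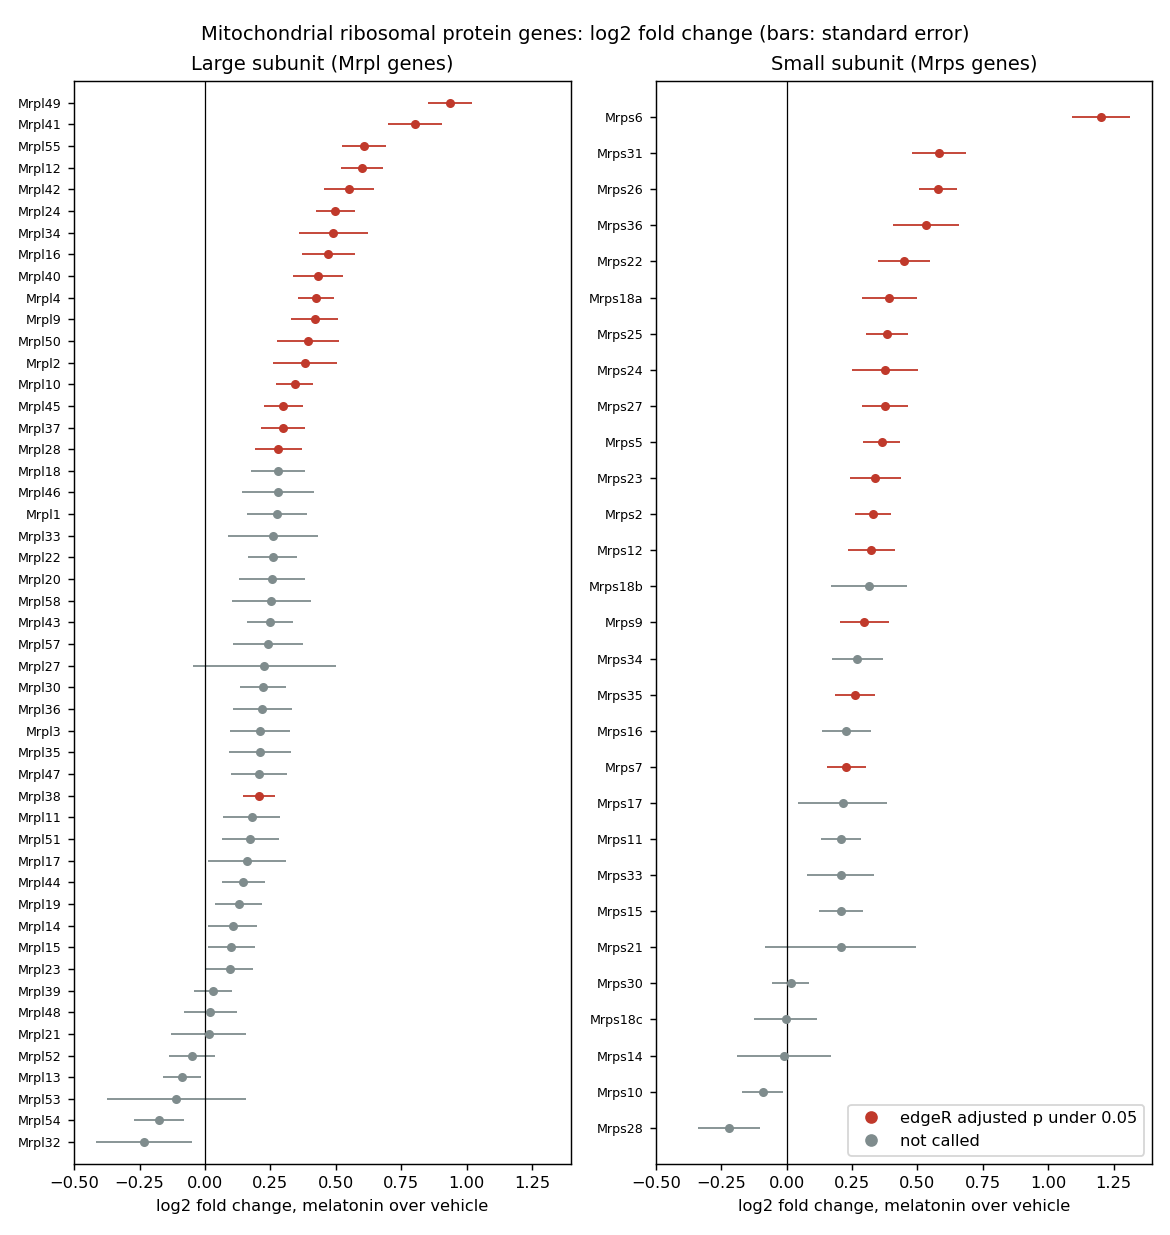
Log2 fold change of each of the 78 genes, melatonin over vehicle (x axis), with standard errors from edgeR as bars, ordered within the large and the small subunit. Red points passed an edgeR adjusted p under 0.05. The 34 red points all lie right of 0, from Mrpl38 (0.21) to Mrps6 (1.202), and the lowest grey point is Mrpl32 (-0.23).

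The direction was shared much more widely than the calls. The log2 fold change was above 0 for 69 members and below 0 for 9, where 8504 of all 16565 tested genes were above 0. Over the alternatives 66 to 75 members were above 0, the 75 with library totals, which moved the median over all tested genes to 0.17. The 44 members that did not pass had a median of 0.21 with a range of -0.23 to 0.32. A typical standard error was 0.097 on the log2 scale (median over members, range 0.062 to 0.29), and the members that did not pass had standard errors of 0.071 to 0.29. In the summed level of all 78 genes the vehicle libraries held 2078, 2324, 2118 and 2078 CPM and the melatonin libraries 2568, 2575, 2372 and 2981 CPM. The groups did not overlap, and vehicle replicate 2 and melatonin replicate 4 were the highest of their groups. Without Mrps6, whose level is uncertain as described below, the groups were close. Vehicle replicate 2 then held 2290 CPM and melatonin replicate 3 held 2303 CPM. The mean was 2150 ± 118 CPM with vehicle and 2624 ± 256 CPM with melatonin (SD, n = 4), a ratio of 1.22. The large subunit sum went from 1418 ± 87.4 to 1706 ± 173 CPM, 1.203-fold, and the small subunit sum from 731 ± 31.0 to 918 ± 85.6 CPM, 1.26-fold.

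Melatonin replicate 4 carried the highest value among the melatonin libraries for 70 of the 78 members (89.7%), where it did so for 36% of all tested genes. It did so for 79 of 80 cytosolic ribosomal protein genes as well. Without that library 33 members rose and 1 fell (backgrounds 19.5% and 19.4%), the median log2 fold change was 0.20, and the summed level was 1.17-fold higher with melatonin. The member that fell then was Mrps28 (-0.31, edgeR adjusted p = 0.036), a small subunit gene chosen after its values were seen. Its vehicle libraries held 18.1, 20.3, 21.2 and 17.4 CPM and its melatonin libraries 17.1, 15.2, 14.0 and 19.8 CPM, so the groups overlapped through melatonin replicate 4. With all libraries it did not pass (-0.22 ± 0.12).

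**Figure D2:**
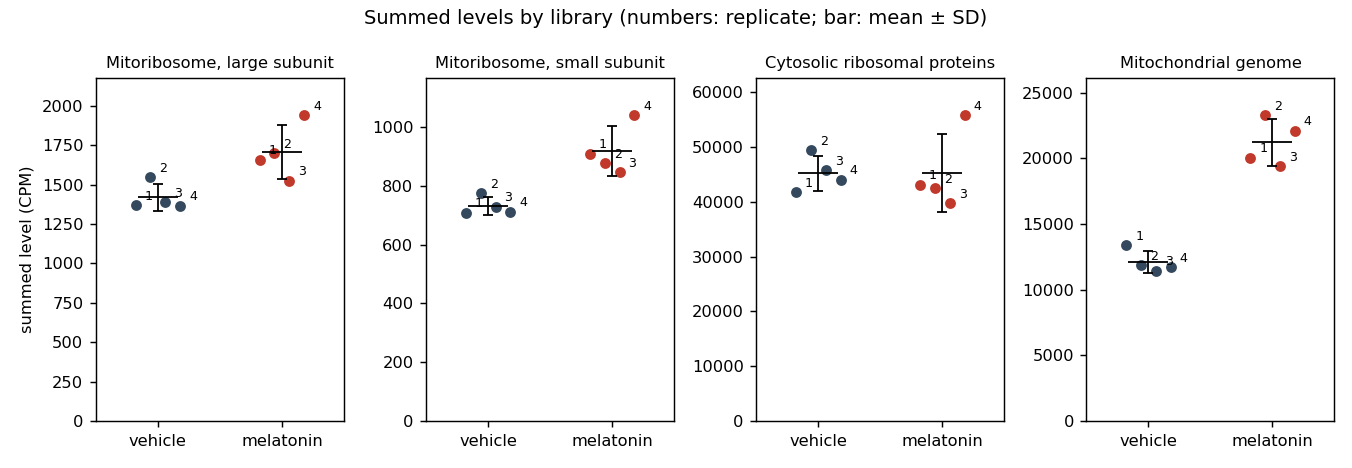
Summed level in CPM (y axis, from 0) in each library, numbered by replicate, with mean ± SD, for the large and small subunit genes of the mitochondrial ribosome, the cytosolic ribosomal protein genes and the mitochondrial genome. Large subunit sums are 1367 to 1548 CPM with vehicle and 1526 to 1941 CPM with melatonin, so that melatonin replicate 3 lies below vehicle replicate 2, while small subunit sums do not overlap. Melatonin replicate 4 is the highest melatonin library in each panel except that of the mitochondrial genome.

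The members are scattered over 17 autosomes, with 11 on chromosome 11. What many have in common is a neighbour on the opposite strand that starts close to them. In some of these pairs, such as Mrpl48 and Rab6a, the annotated genes overlap across their starts. In 33 of 78 members (42.3%) a protein-coding gene on the opposite strand begins within 1000 bases, which holds for 15.2% of 14133 tested protein-coding genes. Mrpl49 starts 59 bases from Fau, which encodes a cytosolic ribosomal protein. While Mrpl49 rose, Fau had 430, 590, 538 and 499 CPM with vehicle and 443, 404, 405 and 597 CPM with melatonin and did not pass (-0.15 ± 0.14). Of the 12 members that rose and have such a neighbour, the neighbour rose in 3, fell in 1, did not pass in 7 and was not tested in 1. The neighbour that fell was Pnpla7, a lysophospholipase gene (-0.41), which starts 935 bases from Mrpl41. Of the 21 members that did not pass and have such a neighbour, it rose in 4 and fell in 3. Mrps11 and Mrpl46 are each other's neighbour, so that pair counts more than once among the 21. Over all tested genes 18.1% were higher and 18.5% lower, and a difference of the neighbours from these shares was not tested.

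The members' promoters were read for short motifs of factors known to drive nuclear genes of mitochondria. RefSeq start windows (GRCm38.p6), from 250 bases before to 50 after the start, were at hand for 69 members. The motifs were TGCGCA (part of the NRF1 site), CCGGAA (core of ETS factors such as GABP), ATGGCG (core of the YY1 site), GGGCGG (SP1 box) and CACGTG (E-box), sought on both strands. Matches to different motifs can overlap. TGCGCA occurred in 30.4% of the member windows and in 13.8% of the 10952 windows of tested protein-coding genes. CCGGAA occurred in 56.5% against 27.0%, ATGGCG in 27.5% against 15.1%, GGGCGG in 49.3% against 63.5% and CACGTG in 7.25% against 9.93%. Among members that rose, 9 of 31 windows held TGCGCA and 13 of 31 CCGGAA. Among the others, 12 of 38 held TGCGCA and 26 of 38 CCGGAA. A match is a run of letters and not a site shown to be bound.

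Bases just before the start, with exons of any gene left out, are given for 7 members, chosen after the matches were seen to show members with and without them. Capitals mark the NRF1 and the ETS letters on either strand. Mrps31 (chr8:22411310-22411339, plus strand), Mrps22 (chr9:98601680-98601829, minus strand), Mrps18a (chr17:46110836-46110985, plus strand) and Mrpl45 (chr11:97315566-97315715, plus strand) rose and hold matches. Mrpl58 (chr11:115403602-115403751, plus strand) holds both an NRF1 and an ETS match and did not pass. Mrpl49 (chr19:6057786-6057843, minus strand, the whole gap to Fau) and Mrpl12 (chr11:120484463-120484612, plus strand) were among the larger increases and show no capitals in these bases.
Mrps31: gtctccgtttcctaCCGGAAtccaaaagga
Mrps22: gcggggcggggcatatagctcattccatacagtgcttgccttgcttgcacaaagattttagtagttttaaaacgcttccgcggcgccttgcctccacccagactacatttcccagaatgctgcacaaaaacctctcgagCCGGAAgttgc
Mrps18a: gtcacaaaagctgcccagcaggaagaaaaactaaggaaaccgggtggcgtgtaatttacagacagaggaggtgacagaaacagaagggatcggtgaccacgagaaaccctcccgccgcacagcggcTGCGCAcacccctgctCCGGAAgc
Mrpl45: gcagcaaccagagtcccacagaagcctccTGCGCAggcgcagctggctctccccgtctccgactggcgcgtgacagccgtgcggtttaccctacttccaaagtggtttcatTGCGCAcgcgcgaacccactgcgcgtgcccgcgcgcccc
Mrpl58: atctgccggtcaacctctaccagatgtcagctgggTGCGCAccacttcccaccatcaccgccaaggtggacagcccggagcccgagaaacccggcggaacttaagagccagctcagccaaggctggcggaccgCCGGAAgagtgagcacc
Mrpl49: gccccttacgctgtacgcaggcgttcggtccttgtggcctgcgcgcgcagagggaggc
Mrpl12: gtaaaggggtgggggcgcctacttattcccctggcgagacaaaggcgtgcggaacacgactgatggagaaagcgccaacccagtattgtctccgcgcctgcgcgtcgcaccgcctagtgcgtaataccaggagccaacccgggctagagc

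Within the large subunit, the stalk is the flexible arm that receives translation factors. Mrpl12 encodes its repeated subunit. Its level was 53.9, 66.5, 52.9 and 54.1 CPM in the vehicle libraries and 85.5, 85.3, 85.7 and 88.4 CPM in the melatonin libraries. All melatonin libraries were above all vehicle libraries, of which replicate 2 was the highest. The log2 fold change was 0.60 ± 0.081 (edgeR adjusted p = 3.1e-04), and the gene lies on chromosome 11 at 120484613 to 120489065 on the plus strand of GRCm38. Of the 5 genes of the stalk and its base 2 rose, Mrpl12 and Mrpl10, which encodes the protein that anchors the stalk (0.34 ± 0.071). Mrpl11, whose protein sits at the stalk base, had 20.1, 24.6, 21.4 and 21.1 CPM with vehicle and 22.9, 25.1, 21.6 and 29.0 CPM with melatonin. These groups overlapped and the gene did not pass (0.18 ± 0.11). Mrpl54 is the member with the highest level per kilobase of exon, 74.4 CPM per kb. Its vehicle libraries held 65.1, 71.0, 61.7 and 62.5 CPM and its melatonin libraries 58.2, 62.0, 47.5 and 63.0 CPM. The groups overlapped, with melatonin replicate 3 the lowest, and the gene did not pass (-0.17 ± 0.096).

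The exit tunnel is where the new chain leaves the ribosome toward the inner membrane. Of the 7 genes listed for its surroundings 2 rose (28.6%) and 0 fell, with a median of 0.21. Of all 78 members 43.6% rose and of all tested genes 18.1%, and a difference between regions was not tested. Mrpl45, whose protein ties the ribosome to that membrane, had 36.4, 38.1, 36.4 and 38.7 CPM with vehicle and 45.2, 46.2, 41.7 and 51.0 CPM with melatonin. The groups were separate and the difference was small but precise (0.30 ± 0.075, edgeR adjusted p = 0.011). Mrpl24 was the other gene of this list that rose (0.50 ± 0.075). Mrpl23, another tunnel protein gene, had 26.6, 28.3, 25.1 and 26.0 CPM with vehicle and 26.9, 28.4, 25.3 and 32.7 CPM with melatonin, with overlap and no call (0.09 ± 0.091). Mrpl44, which encodes a protein with a ribonuclease fold, had 17.6 to 19.5 CPM with vehicle and 19.4 to 22.9 CPM with melatonin and did not pass either (0.15 ± 0.082). Of the 6 genes of the central protuberance, the crown of the large subunit, 2 rose (33.3%) with a median of 0.25.

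Further large increases were found in large subunit genes outside these regions. Mrpl49 encodes a protein found in mitochondrial ribosomes and absent from bacterial ones. It had 21.8, 25.8, 24.6 and 25.3 CPM with vehicle and 48.2, 46.8, 41.5 and 50.1 CPM with melatonin, so that its lowest melatonin library was well above its highest vehicle library. It rose 1.91-fold (log2 0.94 ± 0.085, edgeR adjusted p = 2.7e-05). It shares 91 exon bases with Syvn1 on the opposite strand, which did not pass (-0.30). Mrpl41, whose protein has also been described as a partner of BCL2, had 17.0, 19.7, 17.4 and 16.3 CPM with vehicle and 30.5, 30.4, 26.3 and 35.6 CPM with melatonin. Here too the groups were separate, and the rise was 1.74-fold (0.80 ± 0.10, edgeR adjusted p = 2.5e-04). Mrpl55, a small protein of bacterial descent, had 13.1, 13.6, 13.3 and 12.2 CPM against 18.7, 20.6, 18.5 and 21.6 CPM (0.61 ± 0.084). Mrpl42, found in mitochondria only, had 26.5, 25.4, 23.8 and 22.4 CPM against 32.5, 39.9, 32.5 and 38.8 CPM (0.55 ± 0.095). Neither gene showed any overlap.

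Other large subunit genes differed less. Mrpl34, a short protein of bacterial type and next to Mrpl54 in level per kilobase (56.5 CPM per kb), had 25.9, 32.7, 28.9 and 26.6 CPM with vehicle and 36.5, 37.7, 34.6 and 51.5 CPM with melatonin. It rose (0.49 ± 0.13, edgeR adjusted p = 0.016), by 0.36 without melatonin replicate 4, and lost the call without vehicle replicate 1 (edgeR adjusted p = 0.050, where all alternatives ranged from 0.0026 to 0.082). Mrpl52, next in that order (51.0 CPM per kb), had 57.3, 64.0, 56.7 and 52.1 CPM with vehicle and 54.8, 57.0, 49.2 and 61.2 CPM with melatonin, overlapping and without a call (-0.05 ± 0.088). Its sign turned positive (0.11) with library totals as the scaling. Mrpl58, a peptidyl-tRNA hydrolase that frees stalled ribosomes, had 13.2 to 19.0 CPM and 15.2 to 22.9 CPM and did not pass (0.25 ± 0.15).

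In the small subunit the gene with the largest increase was Mrps6, on chromosome 16 at 92058270 to 92112227 on the plus strand. It had 28.6, 34.7, 35.1 and 33.9 CPM with vehicle and 72.2, 70.6, 69.2 and 92.6 CPM with melatonin. The groups were far apart, with melatonin replicate 4 above the other 3. It rose 2.30-fold (log2 1.202 ± 0.11, edgeR adjusted p = 2.9e-05) and 1.10 on the log2 scale without that library. Mrps6 alone gave 9.07% of the summed difference of the 78 genes. The gene for the myo-inositol transporter, Slc5a3, lies within Mrps6 on the same strand and shares 159 of the 1533 exon bases of Mrps6. Gm49711 shares 305 of them, and it overlaps Slc5a3 as well. Slc5a3 had 13.6, 11.3, 11.1 and 12.4 CPM with vehicle and 40.3, 38.1, 51.9 and 37.7 CPM with melatonin (log2 1.79 ± 0.12). The sources used here do not say how reads from shared bases were assigned, so the level of Mrps6 is uncertain. Slc5a3 was lowest among the melatonin libraries in replicate 4, where Mrps6 was highest.

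Mrps31 and Mrps26 encode proteins that mitochondria added to the small subunit. Mrps31 had 7.87, 8.15, 7.85 and 8.94 CPM with vehicle and 10.7, 12.6, 12.2 and 13.7 CPM with melatonin (0.58 ± 0.10, edgeR adjusted p = 0.0015). Mrps26 had 40.9, 44.2, 37.3 and 39.0 CPM against 57.2, 60.7, 59.6 and 63.6 CPM (0.58 ± 0.072, edgeR adjusted p = 1.9e-04). In both genes every melatonin library exceeded every vehicle library. Mrps22, Mrps16 and Mrps34 are small subunit genes in which mutations are known to cause inherited respiratory chain disease. Mrps22 rose from 8.61, 9.24, 9.08 and 9.14 CPM to 11.2, 12.3, 11.5 and 14.3 CPM (0.45 ± 0.10), with no overlap. Mrps16 (25.8 to 29.3 against 28.1 to 37.1 CPM, 0.23 ± 0.093) and Mrps34 (23.2 to 27.1 against 26.4 to 34.5 CPM, 0.27 ± 0.098) overlapped and did not pass. Their edgeR adjusted p-values were 0.082 and 0.056. Mrps34 shares 1309 of its 2064 exon bases with Mapk8ip3 on the opposite strand, which fell (-0.35). It shares 763 with Nme3 on the same strand, which did not pass. The sources used here do not say how reads from shared bases were assigned, so the level of Mrps34 is uncertain.

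Mrps12, whose protein lines the decoding centre, had 38.4, 42.2, 37.6 and 33.6 CPM with vehicle and 47.4, 48.3, 42.0 and 52.3 CPM with melatonin. Melatonin replicate 3 lay just below vehicle replicate 2, and the gene rose (0.32 ± 0.091, edgeR adjusted p = 0.019), losing the call without vehicle replicate 4 (edgeR adjusted p = 0.057, where all alternatives ranged from 0.0019 to 0.29). Mrps21 had the highest level per kilobase in the small subunit (47.6 CPM per kb) and the largest standard error of all 78 members. It had 43.0, 25.9, 41.1 and 20.7 CPM with vehicle and 45.7, 23.9, 35.6 and 45.5 CPM with melatonin, which overlapped throughout (0.21 ± 0.29, not called).

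Mrps18a, Mrps18b and Mrps18c descend from a single bacterial protein and differed in their values. Mrps18a had 22.8, 30.4, 29.1 and 24.3 CPM with vehicle and 34.9, 33.5, 32.9 and 38.5 CPM with melatonin and rose (0.39 ± 0.105, edgeR adjusted p = 0.015). Mrps18b went from 18.4 to 25.8 CPM across vehicle libraries and from 21.7 to 34.2 CPM across melatonin libraries (0.32 ± 0.145), and did not pass. Mrps18c had 10.5, 12.3, 12.4 and 12.4 CPM with vehicle and 12.1, 11.2, 10.004 and 14.2 CPM with melatonin, with a log2 fold change of -0.00 ± 0.12 whose sign changed with the scaling. These genes were tested separately, and a difference between the 3 genes was not tested. Mrps18a and Mrps30 are named for the small subunit, although their proteins are bound in the large one. Mrps30 had 33.1, 35.8, 34.4 and 31.6 CPM with vehicle and 33.5, 35.4, 31.6 and 35.7 CPM with melatonin, and its log2 fold change was 0.01 ± 0.071. Mrps36 carries a ribosomal name, but its product is now assigned to the oxoglutarate dehydrogenase complex. It had 12.1, 16.5, 11.5 and 11.4 CPM against 19.0, 18.6, 17.5 and 19.6 CPM and rose (0.53 ± 0.125, edgeR adjusted p = 0.0078). With these 3 genes placed by protein, 19 of 51 large and 14 of 26 small subunit genes rose.

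**Figure D3:**
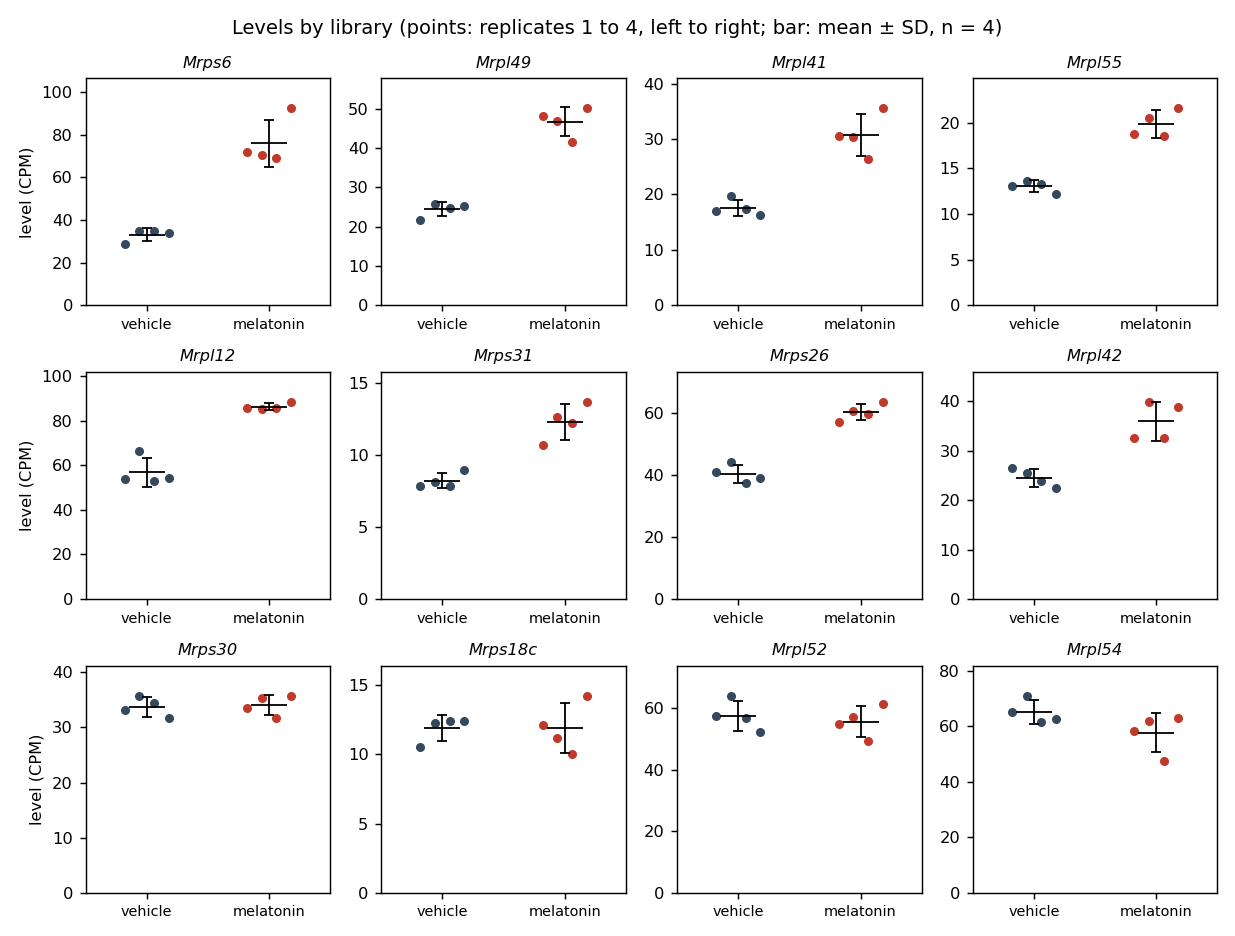
Level in CPM (y axis, from 0) in each vehicle and melatonin library, replicates 1 to 4 from left to right, with mean ± SD (n = 4). The first 8 panels are the members with the largest increases, from Mrps6 to Mrpl42, in which the groups do not overlap. The last row shows Mrps30, Mrps18c, Mrpl52 and Mrpl54, in which they do.

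Grouped by descent, 18 of 47 members with a bacterial counterpart rose (38.3%, median 0.23) and 15 of 28 members found in mitochondria only rose (53.6%, median 0.27). Of all tested genes 18.1% were higher, and a difference between the groups by descent was not tested. The remaining 3, Mrps28, Mrps36 and Mrpl58, were placed in neither group. A further 5 genes of the table encode mitochondrial ribosomal proteins under other symbols. Of these 1 rose and 0 fell (median 0.18), where 18.1% of all tested genes were higher and 18.5% lower. A difference of these 5 genes from those shares was not tested. The gene that rose was Ptcd3, which encodes a pentatricopeptide repeat protein of the small subunit. It had 21.8, 15.0, 17.5 and 20.7 CPM against 22.6, 25.1, 23.0 and 24.7 CPM (0.35 ± 0.12, edgeR adjusted p = 0.043). The GTP-binding small subunit gene Dap3 (0.18 ± 0.085), the large subunit gene Gadd45gip1 (0.205 ± 0.105), Aurkaip1 (0.09 ± 0.11) and Chchd1 (0.01 ± 0.155) did not pass.

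The same comparison was read for the genes that work with this ribosome. Over all tested genes 18.1% were higher and 18.5% lower. Factors that assemble it or modify its RNA were higher in 13 of 28 cases and lower in 0 (median 0.33). At an unadjusted edgeR p under 0.05, in DESeq2 and in limma-voom the number lower was 0 as well. Of the genes tested in each, 17.1% were lower in DESeq2 and 18.9% in limma-voom. Noa1, a GTPase gene of small subunit assembly, had 19.4, 20.1, 21.4 and 21.2 CPM with vehicle and 29.4, 28.6, 28.6 and 31.0 CPM with melatonin (0.52 ± 0.069). Rpusd3, a pseudouridine synthase gene (0.975 ± 0.137), and Rbfa, a ribosome maturation factor gene (0.59 ± 0.087), rose too. Enzymes that charge mitochondrial transfer RNAs were higher in 11 of 20 cases and lower in 0, with a median of 0.32, and the same 3 checks gave 0 lower. Vars2, the valine enzyme gene (0.42 ± 0.069), and Gatc, a subunit gene of the amidotransferase that completes glutamine transfer RNA (0.58 ± 0.10), were among the 11 that rose. Among 15 factors of translation itself 4 rose (26.7%) and 1 fell (median 0.16). Oxa1l, the membrane insertase to which this ribosome docks, had the smallest p (0.48 ± 0.059). The RNA-binding protein gene Lrpprc (0.36 ± 0.072) and the recycling factor gene Gfm2 (0.27 ± 0.067) followed.

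Both ribosomal RNAs of the mitochondrion were higher. The RNA of the small subunit, mt-Rnr1, had 108, 114, 107 and 115 CPM with vehicle and 212, 215, 186 and 261 CPM with melatonin (0.98 ± 0.097), and that of the large subunit, mt-Rnr2, 179, 197, 190.1 and 201 against 270, 313, 278 and 405 CPM (0.72 ± 0.12). The groups were separate in both. Their levels can depend on how the libraries were made, for which the labels name only standard Illumina protocols. All 13 messenger RNAs of the mitochondrial genome rose, with a median of 0.80, and mt-Nd2 (1.13), mt-Nd1 (0.89) and mt-Nd4 (0.92), which encode subunits of complex I, had the smallest p-values. Of 17 genes for mitochondrial transcription and RNA processing 4 rose (23.5%) and 1 fell (median 0.19), where 18.1% of all tested genes were higher and 18.5% lower. The one that fell was Pnpt1, the mitochondrial polynucleotide phosphorylase gene (-0.68 ± 0.12), while Fastk (0.38 ± 0.080) and the transcription factor gene Tfb2m (0.39 ± 0.12) rose.

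Among 10 regulators of mitochondrial gene expression 3 rose (30.0%) and 3 fell, where 18.1% of all tested genes were higher and 18.5% lower. The coactivator genes Ppargc1b (0.503, 0.370, 0.482 and 0.401 CPM against 2.48, 2.60, 3.19 and 1.10 CPM) and Ppargc1a (1.49, 0.857, 0.921 and 1.06 CPM against 3.54, 2.53, 3.81 and 2.74 CPM) rose from low levels, by 2.41 ± 0.32 and 1.54 ± 0.22 on the log2 scale. Yy1 fell from 95.2, 99.1, 97.8 and 97.7 CPM to 74.9, 76.8, 78.4 and 74.8 CPM (-0.35 ± 0.052). Of the factors whose motifs were read, and chosen for that after their values were seen, Nrf1 (12.1 to 12.4 against 10.6 to 13.6 CPM), Gabpa (-0.10 ± 0.083) and Sp1 (0.01 ± 0.12) did not pass, and Gabpb1, the partner subunit of Gabpa, fell (-0.44 ± 0.094).

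Cytosolic ribosomal protein genes serve as the closest comparison, since they encode the other ribosome of the same cells. Of 80 such genes 1 rose, Rpl7a (0.23 ± 0.079), and 0 fell, and the median was -0.01. Of all tested genes 18.1% were higher and 18.5% lower. With DESeq2 2 rose and 0 fell (backgrounds 15.8% and 17.1%), and with limma-voom 1 rose and 0 fell (17.9% and 18.9%). At an unadjusted edgeR p under 0.05 2 rose and 0 fell, and the share of all tested genes at that threshold was not counted. Rps2 (0.28 ± 0.12) and Rps25 (0.58 ± 0.25) had the next smallest p-values and did not pass. Without melatonin replicate 4, 1 rose and 15 fell, with a median of -0.13. In that fit 19.5% of all tested genes were higher and 19.4% lower. With all libraries the summed level of the cytosolic genes was 45229 ± 3199 CPM with vehicle and 45283 ± 7175 CPM with melatonin, a ratio of 1.001. Without melatonin replicate 4 the ratio was 0.92. Reads of these genes can be shared with processed copies elsewhere in the genome. The difference between the mitochondrial and the cytosolic genes was not tested.

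**Figure D4:**
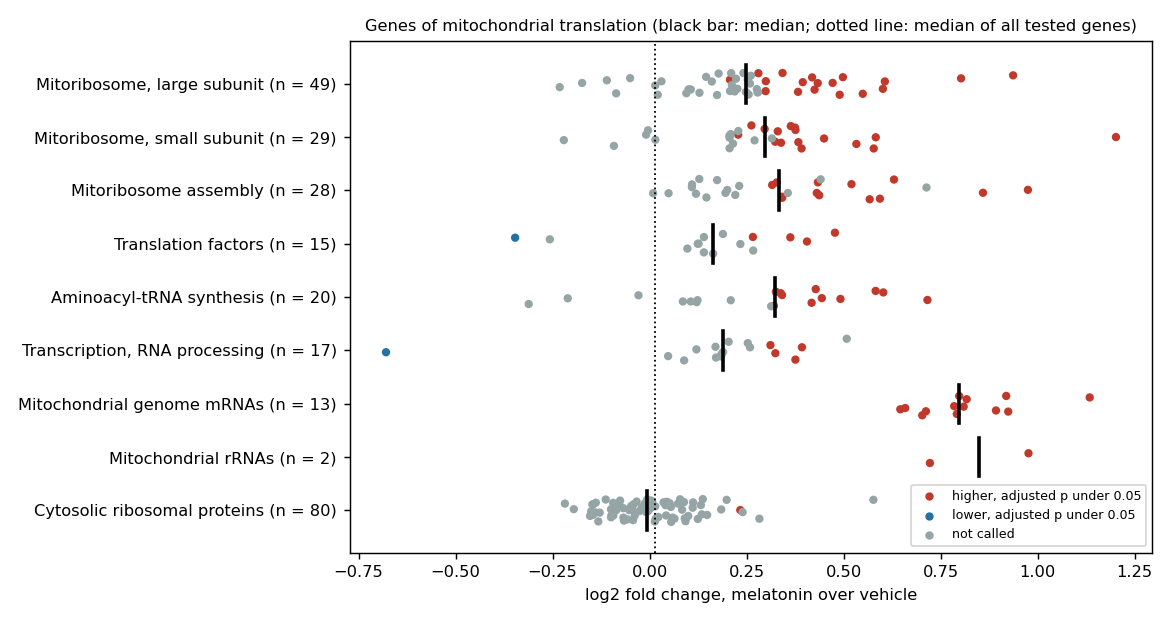
Log2 fold change, melatonin over vehicle (x axis), of each tested gene in 9 groups, with the median of each group as a black bar and that of all tested genes as a dotted line. Red and blue points passed an edgeR adjusted p under 0.05 as higher or lower. Medians are 0.25 and 0.30 for the large and small subunit of the mitochondrial ribosome, 0.80 for mitochondrial genome mRNAs and -0.01 for cytosolic ribosomal proteins.

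How many members were called depended on the scaling. With library totals alone 58 members rose (background 30.8% higher) and 0 fell (13.5% lower). That scaling moved the median over all tested genes to 0.17, and the values above are relative to TMM scaling. DESeq2 called 35 members higher and 0 lower (backgrounds 15.8% and 17.1%), and limma-voom 34 and 0 (17.9% and 18.9%). At an edgeR adjusted p under 0.01 the counts were 20 and 0 (10.6% and 12.7%), and with a minimum fold of 1.2 they were 12 and 0 (8.78% and 12.3%). With the replicate number as a block they were 29 and 0 (13.8% and 16.0%). Reads of neighbouring genes could also enter a member's count, since 33 of the 78 share exon bases with another annotated gene. Of the 45 that share none, 23 rose and 0 fell.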

How the data were processed

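RNA was measured by sequencing in 4 vehicle and 4 melatonin libraries of cultured mouse FAPs. The authors deposited whole-number counts for 20781 Ensembl genes, each with at least 11 counts over the 8 libraries. Per the submitters' processing notes, HISAT2 2.0, StringTie 1.3.3b, Trimmomatic 0.36, FastQC 0.11.2, DESeq2 1.12.4, bedtools 2.26.0 and build mm10 were used. The sources used here do not name the counting program, the annotation release or a strand setting, so overlapping and antisense genes can share reads. Columns named as control were read as vehicle, the only other group. Symbols came from GENCODE M21 (GRCm38), which held 20720 of the IDs. P-values measure the spread between these libraries, since separate animals are not named.

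Genes were kept with filterByExpr (16565) and compared by edgeR 4.0.16 (robust quasi-likelihood F-test, TMM factors, Benjamini-Hochberg adjustment over all tested genes, threshold 0.05, group as the only term). Standard errors are the log2 fold change divided by the square root of F. Levels per kilobase used merged exons. The fit was tested on simulated counts with known changes. As alternatives, other scalings, filters and thresholds, limma-voom (limma 3.58.1), DESeq2 1.42.0, a block for replicate number and fits without 1 library were run. The members and lists were chosen with earlier results of these data known. Genes were named by rule: the 8 largest increases and decreases among passing members, the 3 smallest p and the 3 highest levels per kilobase in each subunit, and a fixed set, 26 members in all. From each partner list the 3 smallest p were named, except 1 gene that is not reported here. Any other gene was chosen after its values were seen.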

Additional observations from a re-analysis of the deposited data

Results flagged for a closer look

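In the 62 sets of 4 libraries examined (the 26 named members and 5 summed levels, in each group), 7 had a highest or lowest library whose gap to the nearest other was larger, relative to the range of the 4, than Dixon's 95% critical value. For a set of 4 independent values, chance alone gives such a gap about 1 time in 20. The 62 sets come from the same libraries and the sums share members, so this rate gives no expected number for them. Mrps6 stood at 92.6 CPM in melatonin replicate 4, where the other 3 held 69.2 to 72.2 CPM. Mrpl12 stood at 88.4 CPM in the same library, against 85.3 to 85.7 CPM, and at 66.5 CPM in vehicle replicate 2, against 52.9 to 54.1 CPM. Mrps36 was also high in vehicle replicate 2 (16.5 CPM), as were the summed level of all 78 members (2324 CPM) and that of the large subunit (1548 CPM). Mrps18c was low in vehicle replicate 1 (10.5 CPM).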

How the results depend on the processing

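With library totals as the scaling, 58 members, 36 large subunit genes and 5099 of all genes were higher, and 69.5% of all calls were higher against 49.4% with TMM. At an adjusted p under 0.01 these counts were 20, 11 and 1754, with 9 small subunit genes. With a minimum fold of 1.2 they were 12, 8 and 1455, with 4 small subunit genes, and all of those members were among the 34. Leaving out 1 library at a time gave 24 to 41 higher members and 0 to 1 lower (0 to 1 in the small subunit), with a median log2 fold change of 0.20 to 0.34, and 22 of the 34 members held their call in all 8 such fits. The other alternatives gave 29 to 36 higher members and 0 lower, or 23 of the 45 members that share no exon bases and 32 without Mrps6 and Mrps36 (both chosen after seeing the data). With replicate number as a block 29 of the 34 remained, and Mrps7, Mrps9, Mrps24, Mrps35 and Mrpl38 were lost. Equal numbers did not pair the samples (correlation of deviations -0.071 to 0.038), and 0 of 4 vehicle libraries correlated best with its own number. The number of members with a log2 fold change above 0 ran from 66 without melatonin replicate 4 to 75 with library totals. Among the 26 members named by rule, 3 that did not pass changed sign. Mrps18c was 0.15 with library totals, 0.011 with upper quartile factors, 3.7e-05 with no filter and 0.0060 with scaling that left out mitochondrial genome and cytosolic ribosomal protein genes. Mrpl52 was 0.11 with library totals. Leaving out 1 library gave -0.092 to 0.085 for Mrps18c, -0.095 to 0.018 for Mrpl52 and -0.014 to 0.063 for Mrps30. The cause was not tested. Total counts ran from 35584931 to 52401153. The lowest member, Mrpl53, had a mean of 2.49 CPM. It shares 695 of its 790 exon bases with Gm42688 on the same strand, which had a mean of 32.0 CPM. The sources used here do not say how reads from shared bases were assigned, so the level of Mrpl53 is uncertain.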
